A study of Mus musculus with 2 samples.

Results

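The cells described here are macrophages of the Achilles tendon enthesis, the site where tendon joins bone, that carry transcripts of complement C1q and few or none of the resident macrophage genes Cd163, Folr2 and Lyve1. They came from 2 droplet single-cell RNA libraries of SKG mice, a strain with an altered Zap70 that develops autoimmune arthritis, and all values below come from these libraries. In the tail suspension library the hind limbs had been unloaded by hanging the mice by the tail, and in the non-tail suspension library they had not. The labels give no age, sex, number of animals, duration of suspension or inducing agent, so it is not known how many mice each library pools. The tissue had been digested with collagenase, treated to lyse red cells and depleted of dead cells, and nothing was sorted.

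Members were chosen from their own counts of unique molecular identifiers (UMIs, each standing for a captured transcript molecule). Barcodes with fewer than 300 genes, or with more than 20% of UMIs from mitochondrial genes, were left out. Among kept cells, a member had C1qa, C1qb and C1qc at 0.2% of its UMIs or more, Col1a1, Col1a2 and Col3a1 together below 0.5%, and fewer than 3 UMIs of Cd163, Folr2 and Lyve1 combined. This gave 576 of 14483 kept cells in the tail suspension library and 799 of 10947 in the non-tail suspension library, or 1375 of 25430 in all. With 1 library on each side there is no replicate, so no difference was tested, and every interval below is an exact 95% interval that covers counting error only. Differences between the libraries may come from the mice, the dissection or the library as well as from the suspension, and these cannot be told apart.

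C1q is the recognition molecule of the classical complement pathway, and tissue macrophages are its main source in the body. Macrophages depend on the receptor Csf1r for survival, and those that settle in connective tissue before birth or slowly afterwards often carry Cd163, Folr2 and Lyve1. Cells that enter later from blood monocytes pass through stages with Ly6c2 and Ccr2 and often show MHC class II, which presents peptides to CD4 T cells. Interferon-gamma from T and NK cells raises MHC genes, guanylate-binding proteins and the T cell attractants Cxcl9 and Cxcl10.

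The macrophage label held on genes that the rule did not use. Csf1r had 607 CPM (counts scaled to a common total, here over the summed UMIs of the members) in tail suspension members and 521 CPM in non-tail suspension members, against 51.3 and 42.5 CPM in cells of the same libraries gated as T cells by at least 3 UMIs of Cd3d, Cd3e and Cd3g. A Csf1r UMI was present in 87.0% and 90.4% of members, and in 45.1% and 36.4% after each cell was thinned to 1000 UMIs, where T cells had 2.50% and 2.09%. The lysosomal protein gene Cd68 stood at 508 CPM in tail suspension and 676 CPM in non-tail suspension members. All 16 genes of the macrophage marker list were measured, which here means at least 50 UMIs over the members of both libraries. Of 14 dendritic cell markers, 5 were measured, and the list summed to 176 CPM in tail suspension and 261 CPM in non-tail suspension members, of which Irf8 made 110 and 185 CPM and Itgax 38.7 and 30.3 CPM. Flt3, the growth factor receptor of dendritic cells, had 3.50 and 1.01 CPM, and Xcr1 had no UMI in tail suspension members and 0.201 CPM in non-tail suspension members.

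Beyond the 3 genes of the rule, resident markers were mixed in members, with some abundant and others absent or nearly so. Of 17 in the files, 11 were measured. Mrc1, the mannose receptor of many resident macrophages, had 669 CPM in tail suspension members and 269 CPM in non-tail suspension members. Selenop, a selenium transport protein, had 1698 and 1906 CPM, and the platelet factor Pf4 had 1004 and 522 CPM. Timd4, a receptor for dying cells on some long-lived macrophages, was nearly absent at 2.47 and 1.61 CPM. Clec10a had 2.26 and 2.21 CPM, and Cd209f and Cd209g had no UMI. Of the members, 349 in tail suspension and 507 in non-tail suspension had none of the 3 rule genes, while 137 and 189 had 1 UMI and 90 and 103 had 2 UMIs.

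Cells just inside and just outside the limits are given as a description. With 2 UMIs of the resident genes, just inside, Mrc1 stood at 785 CPM in 90 tail suspension cells and 334 CPM in 103 non-tail suspension cells. With 3 UMIs, just outside, it stood at 753 CPM in 59 cells and 350 CPM in 65 cells. At a C1q share of 0.2 to 0.25%, inside, Csf1r had 397 CPM in 55 tail suspension and 445 CPM in 42 non-tail suspension cells, and at 0.15 to 0.2%, outside, 410 CPM in 105 and 345 CPM in 60 cells. At the collagen limit the cells were small, with a median of 964 UMIs in 29 tail suspension cells and 1327 UMIs in 17 non-tail suspension cells just inside at 0.3 to 0.5%, and of 1095 UMIs in 17 and 1822 UMIs in 5 cells just outside at 0.5 to 0.7%.

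Members made up a smaller share of the tail suspension library. They were 3.98% of kept cells (interval 3.66 to 4.31) in tail suspension and 7.30% (6.82 to 7.80) in non-tail suspension. Neutrophils differed in share, here cells with S100a8 and S100a9 at 2% of UMIs or more and C1q below its limit, which were 9.96% of the tail suspension library and 44.4% of the non-tail suspension library. Outside the neutrophil gate members were 4.42% (4.07 to 4.78) in tail suspension and 13.1% (12.3 to 13.99) in non-tail suspension. Among cells outside that gate with a UMI of Ptprc, the pan-leukocyte gene, members with Ptprc were 8.61% (7.87 to 9.39) of 5366 and 18.2% (17.02 to 19.5) of 3771.

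**Figure D1:**
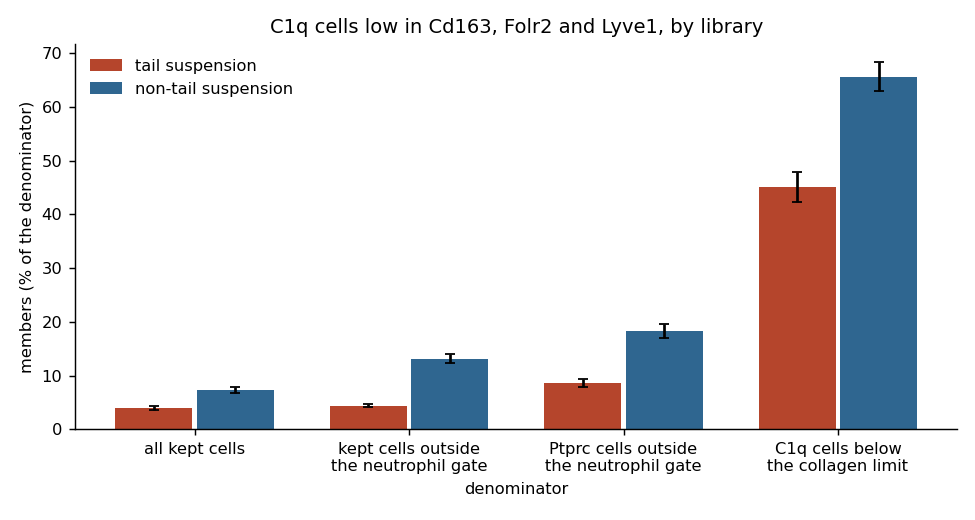
Bars give members as a percent of 4 denominators (x axis) in the tail suspension and non-tail suspension libraries, with exact 95% binomial intervals for counting error as error bars. The tail suspension bar is the lower of each pair, at 3.98% against 7.30% of all kept cells and at 45.1% against 65.7% of C1q cells.

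The split of the C1q cells themselves ran the same way. Cells that passed the C1q limit were 9.49% of kept cells in tail suspension and 11.6% in non-tail suspension. Among C1q cells below the collagen limit, members were 576 of 1277, or 45.1% (42.4 to 47.9), in tail suspension and 799 of 1217, or 65.7% (62.9 to 68.3), in non-tail suspension. The rest, with 3 or more UMIs of Cd163, Folr2 and Lyve1 and called the resident gate below, were 4.84% of kept cells (701 cells) in tail suspension and 3.82% (418 cells) in non-tail suspension. A limit in UMIs is easier to pass in a deep cell. Members had a median of 7948 UMIs in tail suspension and 12505 in non-tail suspension. With each cell thinned to 2000 UMIs and no resident UMI allowed, members were 4.51% of cells in tail suspension and 8.54% in non-tail suspension.

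Transcripts listed as markers of other cell types differed between the members of the libraries. All 17 measured genes of the 18 fibroblast and tendon markers were higher in tail suspension members. Their summed levels were 5344 CPM in tail suspension and 918 CPM in non-tail suspension members, and T cells of the same libraries had 7916 and 770 CPM. Of the members' sums, Fn1, which is also in the monocyte list, made 2159 and 451 CPM. Sparc, which is also in a macrophage list, made 278 and 128 CPM. Prg4, the lubricin gene of lining and sheath fibroblasts, had a UMI in 99.1% of tail suspension members and 49.4% of non-tail suspension members. Erythroid markers summed to 946 and 5.94 CPM, neutrophil markers to 6641 and 4961 CPM, T and NK markers to 157 and 113 CPM, and B and plasma cell markers to 77.7 and 55.4 CPM. Among the defining T cell genes Cd3e had a UMI in 1.74% of tail suspension and 2.00% of non-tail suspension members. The part of these transcripts in the differences below was not tested. Values are also given for members with at most 0.5% of UMIs from the fibroblast and erythroid lists, a limit that counts Fn1 and Sparc. Cell barcodes shared by the libraries numbered 47, of which 1 was a tail suspension member and 4 were non-tail suspension members.

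Against the resident gate of the same library, members had more transcripts of some monocyte and inflammatory genes, among them Ly6c2 and Il1b, but not of every such gene. The monocyte markers summed to 6887 CPM in members and 6895 CPM in the resident gate in tail suspension, and to 2672 and 2292 CPM in non-tail suspension. These levels describe the groups that the rule made and test nothing. Of 11068 genes measured in the pair of gates, 0.669% were at least 2-fold higher in members in both libraries and 1.32% at least 2-fold lower. Ly6c2, the surface protein of classical monocytes, had 82.5 CPM in members and 24.7 CPM in the resident gate in tail suspension, and 105 and 30.2 CPM in non-tail suspension. Il1b, the inflammatory cytokine, had 1014 and 431 CPM in tail suspension and 1515 and 590 CPM in non-tail suspension. For Il1b, T cells had 335 CPM in tail suspension and 865 CPM in non-tail suspension, and the neutrophil gate 1390 and 8037 CPM. Ccl5, a chemokine for T cells and monocytes, had 76.5 and 11.1 CPM in tail suspension and 404 and 115 CPM in non-tail suspension. Plbd1, Bcl2a1a, Traf1, Mcemp1, Napsa, Slc7a11 and Bcl2a1d were also at least 2-fold higher in members in each library. Ly6c2, Mcemp1, Traf1 and Bcl2a1d were lower in members than in T cells in each library, and Ccl5 in tail suspension. Il1b, Plbd1, Bcl2a1a, Napsa and Slc7a11 were higher in members than in T cells in each. Neutrophil markers summed to 4196 CPM in the resident gate in tail suspension and 2330 CPM in non-tail suspension, less than in members. In the T cell gate they summed to 68652 and 77657 CPM, more than in members. The part of neutrophil and lymphocyte transcripts in these gaps was not tested.

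On the other side were genes of alternatively activated and resident macrophages. Retnla, a secreted protein of IL-4-exposed macrophages, had 11.3 CPM in members and 218 CPM in the resident gate in tail suspension, and 15.5 and 61.8 CPM in non-tail suspension. Few cells made these levels. A Retnla UMI was in 1.39% of members and 7.56% of the resident gate in tail suspension, and in 0.751% and 1.44% in non-tail suspension. Cbr2, a carbonyl reductase, had 85.7 and 455 CPM in tail suspension and 34.01 and 201 CPM in non-tail suspension. The monocyte attractant Ccl8 had 1024 and 3964 CPM in tail suspension and 3857 and 9332 CPM in non-tail suspension. Ltc4s, Serpinb6a, Npl, Wfdc17, F13a1, Gas6 and Ctla2b were likewise lower in members in each library. The MHC class II gene H2-Ab1 stood higher in members, at 3615 and 1194 CPM in tail suspension and 7347 and 3983 CPM in non-tail suspension.

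**Figure D2:**
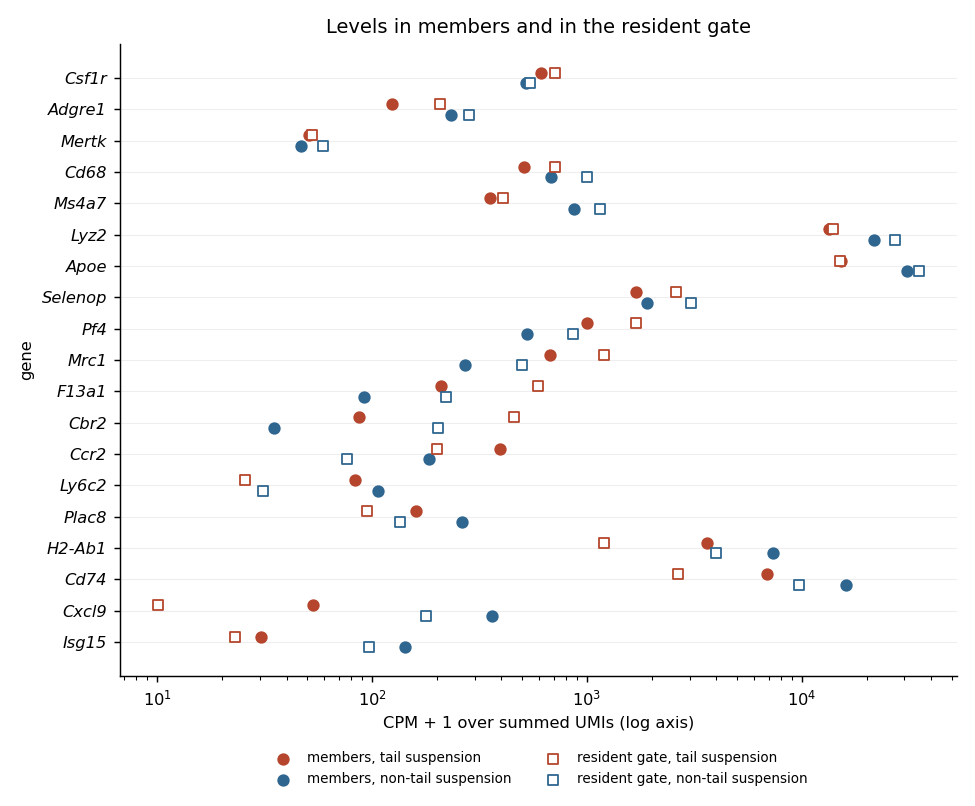
Levels of 19 genes as CPM plus 1 over summed UMIs (log x axis) in members (filled circles) and the resident gate (open squares) of the tail suspension and non-tail suspension libraries. Ly6c2, Ccr2, Plac8 and the class II genes lie further right in members than in the resident gate of the same library, and Cbr2, F13a1, Mrc1 and Pf4 further left.

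Members were a mixture, and its balance differed between the libraries. The summed class II transcripts H2-Aa, H2-Ab1, H2-Eb1 and Cd74 took a median of 1.26% of a member's UMIs in tail suspension (middle 50% from 0.113 to 2.99%) and 4.19% in non-tail suspension (2.10 to 5.88%). Members were divided at 1% of UMIs for class II and at 2 UMIs for the monocyte genes Ly6c2, Ccr2 and Plac8 together. Cells high in class II with monocyte genes were 33.5% (29.7 to 37.5) of tail suspension members and 54.3% (50.8 to 57.8) of non-tail suspension members, and those high in class II without monocyte genes 20.8% (17.6 to 24.4) and 32.7% (29.4 to 36.04). Cells low in class II with monocyte genes were 14.1% (11.3 to 17.2) and 4.51% (3.18 to 6.18), and those low in class II without monocyte genes 31.6% (27.8 to 35.6) and 8.51% (6.67 to 10.7).

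The order of the libraries in each subset was the same at equal depth. After thinning to 1000 UMIs, which left out 31 tail suspension and 24 non-tail suspension members, a single UMI was asked of the monocyte genes. Of tail suspension members, 21.8% were then high in class II with monocyte genes and 35.2% without, and 10.6% were low in class II with monocyte genes and 32.3% without. Of non-tail suspension members, the same subsets held 27.2%, 60.1%, 2.71% and 9.94%. The monocyte genes Ly6c2 and Ccr2 also have UMIs in T cells, at 12.5% and 16.4% of thinned T cells in tail suspension, against 4.95% and 24.6% of thinned tail suspension members. In non-tail suspension they were in 11.8% and 15.5% of thinned T cells and 6.32% and 15.4% of thinned members. Neither gene was in a larger share of members than of T cells there.

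**Figure D3:**
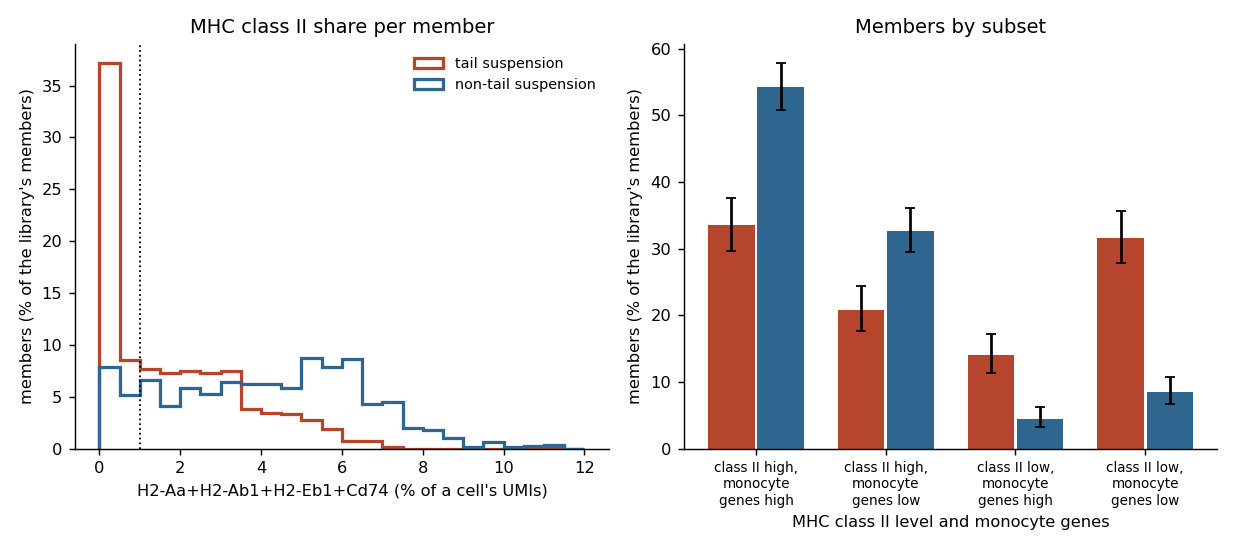
Left, the share of each library's members (y axis) by the percent of a cell's UMIs from H2-Aa, H2-Ab1, H2-Eb1 and Cd74 (x axis), with the dotted line at the 1% limit. Right, the percent of members in 4 subsets by class II and monocyte genes, with exact 95% binomial intervals. Tail suspension members pile up at the lowest class II shares, and their subset low in class II without monocyte genes holds 31.6% of them, against 8.51% of non-tail suspension members.

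Each subset held Csf1r transcripts, while other macrophage genes differed between subsets. Csf1r lay between 559 and 672 CPM in the 4 tail suspension subsets and between 367 and 544 CPM in the 4 non-tail suspension subsets. Ms4a7 was lowest in the subset high in class II with monocyte genes, at 204 CPM in tail suspension and 671 CPM in non-tail suspension. The subsets were not compared with monocytes or dendritic cells. Apoe, the lipid carrier, was highest in the subset low in class II without monocyte genes, at 24726 CPM in tail suspension and 48838 CPM in non-tail suspension, and lowest in the subset high in class II with monocyte genes, at 10452 and 25801 CPM. Il1b was highest in that last subset in both libraries, at 1512 CPM in tail suspension and 1959 CPM in non-tail suspension.

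Between the libraries, the members' summed transcripts showed lower MHC class I, interferon-induced and class II genes in tail suspension, and higher levels of single genes such as Ccl24, Crip1 and S100a6. Of 9542 genes measured in members, 9.24% were at least 2-fold higher in tail suspension and 3.47% at least 2-fold lower, and 64.9% were higher and 35.1% lower by any amount. The median gene was 0.21 higher on the log2 scale, so log2 ratios, given here as tail suspension divided by non-tail suspension, are best read against 0.21 and not 0. Scaling by median of ratios removes this offset and gives 555 genes at least 2-fold higher and 520 at least 2-fold lower, where CPM gives 882 and 331. Signs between 0 and 0.21 turn under that scaling.

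**Figure D4:**
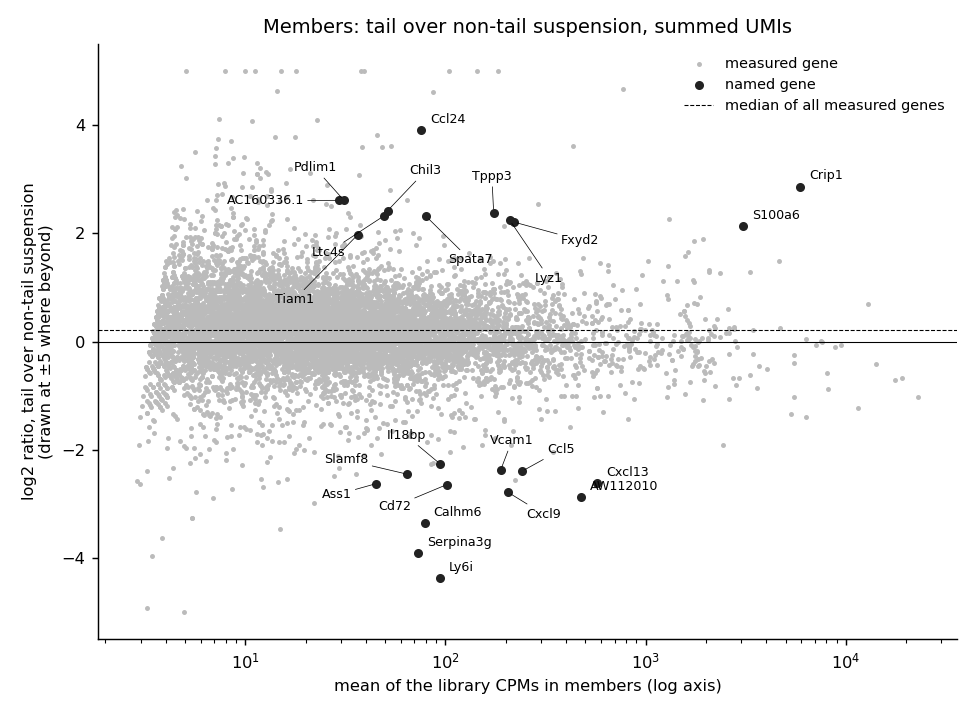
Each point is a measured gene, with its mean CPM over the libraries in members (log x axis) and its log2 ratio between the libraries, positive where tail suspension is higher (y axis). The 24 named genes are in black, from Ccl24 at 3.91 to Ly6i at -4.38, and the dashed line is the median of all measured genes at 0.21.

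Class I presentation genes, which display peptides to CD8 T cells, were lower in tail suspension members without exception among the 19 measured. Their median log2 ratio was -1.38, and 12 were at least 2-fold lower. H2-D1, a classical heavy chain, had 3464 CPM in tail suspension and 9120 CPM in non-tail suspension, a log2 ratio of -1.40 (-1.42 to -1.37). The peptide transporter Tap1 had 49.97 and 193.6 CPM (log2 ratio -1.95, -2.15 to -1.76), and the immunoproteasome subunit Psmb8 had 211 and 631 CPM (-1.58, -1.67 to -1.48). The largest gaps were in H2-Q6 (-2.06) and H2-Q7 (-2.04), whose near-identical sequences make the split of reads between them uncertain. The list's median was -1.29 in the resident gate and -1.19 in T cells of the same libraries.

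Genes induced by interferon-gamma and by antiviral interferons followed the class I genes. Of 25 measured genes for GTPases, CXCR3 ligands and their regulators, 23 were lower in tail suspension members and 13 at least 2-fold lower, with a median of -1.23. Of 33 measured antiviral genes, all were lower and 19 at least 2-fold lower, with a median of -1.33. The corresponding medians were -0.99 and -1.41 in the resident gate and -1.01 and -1.13 in the T cells. Cxcl9 had 52.0 CPM in tail suspension and 359 CPM in non-tail suspension members (log2 ratio -2.79, -2.98 to -2.60) and a UMI in 5.73% and 31.0% of them. The receptor chain Ifngr1 had 185 CPM in tail suspension and 195 CPM in non-tail suspension members (-0.08, -0.20 to 0.04). That interval includes 0 and lies below the 0.21 of the median gene.

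Antiviral genes included Isg15, a ubiquitin-like modifier, with 29.4 CPM in tail suspension and 141 CPM in non-tail suspension members (log2 ratio -2.26, -2.52 to -2.01). Irf7, a transcription factor that amplifies interferon responses, had 30.2 and 142.6 CPM (-2.24, -2.49 to -1.99), and Bst2, the virus-tethering protein tetherin, had 63.7 and 241 CPM (-1.92, -2.09 to -1.75). Each of these stood apart in the number of cells too, with Irf7 found in 14.6% of tail suspension and 57.9% of non-tail suspension members. These shares were taken before thinning, and non-tail suspension members had more UMIs per cell, which widens such a gap. Class I and both interferon lists also had negative medians in each of the 3 subsets with at least 50 cells in each library, between -0.87 and -1.53.

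A part of the promoters of these genes holds the letters of the interferon-stimulated response element, which interferon-activated transcription factors bind. RefSeq promoters on GRCm38.p6, from 250 bases before to 50 bases after the start, were matched by symbol for 18 of the 25 and 26 of the 33 measured genes, some of which have more than 1 promoter. Its core, read as GAAA, any 2 bases and GAAA again, on either strand, was in 11 of 20 promoters of the first list (55%) and 17 of 31 of the second (54.8%), against 3.44% of all 32851 promoters. The gamma-activated site core TTCNNNGAA, which reads alike on both strands, was in 7 of 20 (35%) and 5 of 31 (16.1%), against 8.3% of all. Matches of the 2 motifs shared bases in 2 promoters of the second list and 24 in all. A match is a description of the letters and not of binding. The 150 bases before the start are shown for the 3 antiviral genes with a match and the largest negative ratios among those with at least 200 UMIs, all on the minus strand, 5′ to 3′, with the response element letters in capitals.
Isg15, chr4:156200819-156200968: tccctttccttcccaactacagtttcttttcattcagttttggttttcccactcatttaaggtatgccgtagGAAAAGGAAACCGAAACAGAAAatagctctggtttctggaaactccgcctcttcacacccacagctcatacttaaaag
Oas1a, chr5:120907526-120907675: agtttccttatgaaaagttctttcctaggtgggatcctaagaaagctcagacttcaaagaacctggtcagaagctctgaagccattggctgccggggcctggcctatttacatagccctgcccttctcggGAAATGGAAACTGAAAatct
Bst2, chr8:71537473-71537622: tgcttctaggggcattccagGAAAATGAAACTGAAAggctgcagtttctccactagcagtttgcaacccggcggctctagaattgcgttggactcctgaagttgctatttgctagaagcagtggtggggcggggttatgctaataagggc
In Isg15 the 3 overlapping matches lie between 78 and 57 bases before the start, in Oas1a the 2 matches between 20 and 5 bases, and in Bst2 the 2 matches between 130 and 115 bases. Oas1a, an enzyme that activates RNA decay on viral infection, had 7.81 CPM in tail suspension and 31.5 CPM in non-tail suspension members, a log2 ratio of -2.01.

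By list median, class II presentation genes were lower by less than class I genes. Of 16 measured, 13 were lower in tail suspension members and 5 at least 2-fold lower, with a median of -0.48. In summed level the lists were closer to each other. Class II genes summed to 26028 CPM in tail suspension and 50897 CPM in non-tail suspension members, and class I genes to 8927 and 19535 CPM. H2-Eb1 had 3022 CPM in tail suspension and 7631 CPM in non-tail suspension members (log2 ratio -1.34, -1.36 to -1.31), and the invariant chain Cd74 had 6855 and 16085 CPM (-1.23, -1.25 to -1.21). Ciita, the master regulator of class II transcription, had 27.8 and 54.9 CPM (-0.98, -1.27 to -0.71). The class II list's median was -0.83 in the resident gate and -0.24 in T cells.

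**Figure D5:**
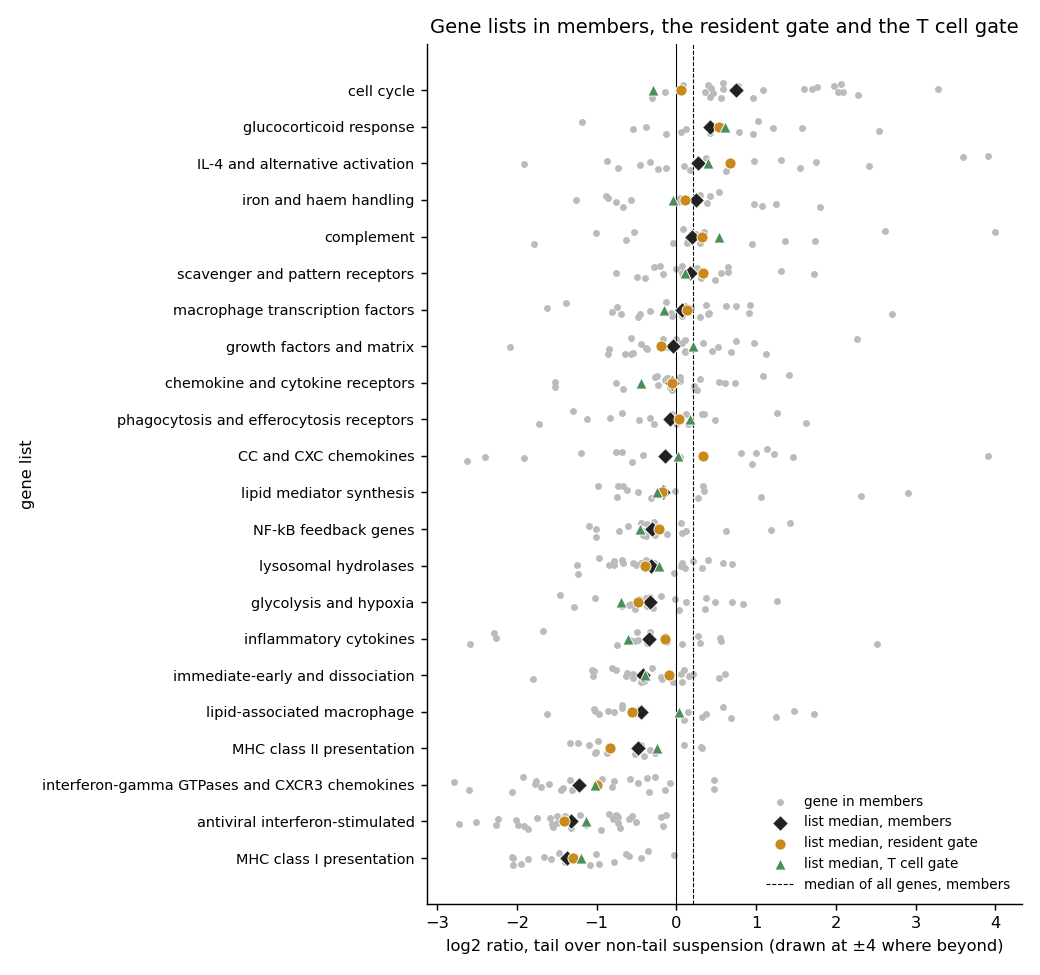
Each grey point is the log2 ratio (x axis, positive where tail suspension is higher) of a measured gene of 22 gene lists (y axis) in members, with list medians in members, the resident gate and the T cell gate. The class I and both interferon lists lie to the left in all 3 gates, and the cell cycle list has medians of 0.75 in members, 0.06 in the resident gate and -0.30 in T cells, a difference that was not tested.

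The 12 named genes lower in tail suspension, those with the most negative ratios above a minimum level, were led by Ly6i. Ly6i, a Ly6-family surface protein whose close relatives can share reads, had 8.64 CPM in tail suspension and 179 CPM in non-tail suspension members (log2 ratio -4.38, -4.85 to -3.94) with its gene at chr15:74979534-74983430 on the minus strand (GRCm38). In the subset low in class II without monocyte genes its log2 ratio was -1.56. Serpina3g, a protease inhibitor, had 9.05 and 136 CPM (-3.91), and Calhm6, a channel protein of activated macrophages, had 13.98 and 143 CPM (-3.36). AW112010, an inducible transcript, had 114 and 841 CPM (-2.88), and Slamf8, a surface receptor of myeloid cells, 19.9 and 109 CPM (-2.45). In the resident gate these 5 were lower as well, by log2 ratios from -3.11 to -5.13.

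The named genes lower in tail suspension also held an adhesion molecule, an enzyme and chemokines. Vcam1, an adhesion molecule for lymphocytes, had 61.3 CPM in tail suspension and 317 CPM in non-tail suspension members (log2 ratio -2.37). Ass1, which makes the precursor of arginine, had 12.5 and 77.5 CPM (-2.63), Cd72, a lectin receptor best known on B cells, 28.0 and 175 CPM (-2.64), and Il18bp, the soluble antagonist of IL-18, 32.5 and 156 CPM (-2.27). Cxcl13, the B cell attractant, had 159 and 982 CPM (-2.62), from a minority of cells, with a UMI in 10.9% and 16.4% of members. Ccl5 had 76.5 and 404 CPM (-2.40), where T cells had 268 and 264 CPM. The log2 ratio of Ccl5 was -0.65 in the subset high in class II without monocyte genes and -3.30 in the subset low in class II without monocyte genes.

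Chemokines were split. Of 17 measured, 8 were higher in tail suspension members and 9 lower, 4 by at least 2-fold each way, with a median of -0.14. Ccl24, an eosinophil attractant of alternatively activated macrophages, had 142 CPM in tail suspension and 9.46 CPM in non-tail suspension members (log2 ratio 3.91, 3.60 to 4.24), with a UMI in 29.3% and 7.13% of cells. Ccl2, the ligand of Ccr2, had 863 and 314 CPM (1.46, 1.39 to 1.53), and Ccl6 had 1352 and 577 CPM (1.23, 1.18 to 1.28). Ccl8, by contrast, had 1024 and 3857 CPM (-1.91, -1.96 to -1.87). The neutrophil attractant Cxcl2 was the most abundant at 6425 and 6249 CPM.

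Resident macrophage markers outside the rule had higher values in tail suspension members, and genes tied to IL-4 were split. Of 18 measured IL-4 genes, 11 were higher, 6 at least 2-fold, and 7 lower, with a median of 0.27 beside 0.21 for all genes, and the median was 0.88 in cells thinned to 1000 UMIs. Ccl17, which attracts cells bearing Ccr4, had 88.6 CPM in tail suspension and 7.35 CPM in non-tail suspension members (log2 ratio 3.59, 3.23 to 3.97), and T cells had 49.2 and 9.19 CPM. Chil3, a chitinase-like protein also made by monocytes and neutrophils, had 86.8 and 16.2 CPM (2.42, 2.16 to 2.69). T cells had 86.8 and 273 CPM, so its level in members was not above theirs. A Chil3 UMI was in 24.1% and 8.76% of members and in 9.03% and 6.83% of T cells. Neutrophil markers summed to 68652 and 77657 CPM in the T cell gate, and their part in its Chil3 level was not tested. Of 11 measured resident macrophage markers, 8 were higher, 6 at least 2-fold, with a median of 1.03, against 1.17 in the resident gate and 0.81 in T cells. The list summed to 4431 CPM in tail suspension and 3660 CPM in non-tail suspension members, and to 568 and 426 CPM in T cells. The part of carried transcripts in this shift was not tested. Mrc1 had a log2 ratio of 1.31 (1.24 to 1.39) and Cbr2 of 1.33 (1.12 to 1.54), while Ninj1, a membrane rupture protein, had 439 and 645 CPM (-0.55).

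Of the 12 named genes higher in tail suspension, Crip1 and S100a6 were the most abundant. Crip1, a small LIM-domain protein on chromosome 12, had 10426 CPM in tail suspension and 1432 CPM in non-tail suspension members (log2 ratio 2.86, 2.84 to 2.89). S100a6, a calcium-binding protein, had 4984 and 1131 CPM (2.14), and Pdlim1, a PDZ and LIM adaptor of actin, 53.5 and 8.76 CPM (2.61). Crip1 was also higher in T cells, at 8713 and 2702 CPM, and S100a6 stood there at 5520 and 2913 CPM. Members with few fibroblast and erythroid UMIs numbered 385 of 576 in tail suspension and 775 of 799 in non-tail suspension, and in them the log2 ratios were 2.72 for Crip1, 1.96 for S100a6 and 2.36 for Pdlim1. Tppp3, a tubulin-binding protein also known from lining cells, had 292 and 56.1 CPM (2.38), or 2.10 in those members.

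The other named genes higher in tail suspension had diverse functions. Lyz1, a lysozyme whose sequence is close to that of Lyz2, had 346 CPM in tail suspension and 73.2 CPM in non-tail suspension members (log2 ratio 2.24), while Lyz2 itself had 13339 and 21763 CPM (-0.71). Fxyd2, a regulator of the sodium pump, had 361 and 78.1 CPM (2.21), and Tiam1, an activator of Rac, 58.2 and 14.8 CPM (1.98). Spata7, a ciliary protein, had 133 and 26.9 CPM (2.31), with 115 and 25.4 CPM in T cells. AC160336.1, a locus known here by its identifier alone, had 50.4 and 8.25 CPM (2.61). Enzymes of leukotriene synthesis were among the higher genes, with Alox5 at 45.0 and 6.04 CPM (2.90) and Ltc4s at 81.8 and 16.4 CPM (2.32), although the lipid mediator list as a whole had 6 higher and 8 lower of 14 measured.

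Monocyte markers were split, with a share of higher genes near that of all genes. Of 16 measured, 10 were higher in tail suspension members, 5 at least 2-fold, and 6 lower, with a median of 0.34. Ccr2, the receptor that brings monocytes out of the marrow, had 391 CPM in tail suspension and 183 CPM in non-tail suspension members (log2 ratio 1.09), and fibronectin Fn1 had 2159 and 451 CPM (2.26), where T cells had 970 and 120 CPM. Ly6c2 had 82.5 and 105 CPM (-0.35, -0.52 to -0.19), Plac8 158 and 260 CPM (-0.72), and Ms4a4c 75.7 and 203 CPM (-1.42).

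Of the macrophage markers, 4 were higher and 12 lower in tail suspension members, 3 at least 2-fold, with a median of -0.51. Ms4a7, a tetraspan protein of macrophages, had 353 CPM in tail suspension and 866 CPM in non-tail suspension members (log2 ratio -1.30), and the high-affinity IgG receptor Fcgr1 had 147 and 320 CPM (-1.12). Maf, a transcription factor of mature macrophages, had 218 and 116 CPM (0.91). C1q itself chose the cells, so its levels are a description. C1qa stood at 2559 and 4660 CPM, C1qb at 1703 and 3538 CPM and C1qc at 1576 and 2371 CPM.

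Inflammatory cytokines had 6 genes higher and 14 lower of 20, with a median of -0.35. Il6 had 45.9 CPM in tail suspension and 8.05 CPM in non-tail suspension members (log2 ratio 2.51, 2.13 to 2.90), but T cells had 66.2 and 9.19 CPM, so its level in members was not above that in T cells. Acod1, which makes the antimicrobial metabolite itaconate, had 52.6 and 168 CPM (-1.67), and Il1b had 1014 and 1515 CPM (-0.58). The list of NF-kB feedback genes had 6 higher and 15 lower of 21 (median -0.30), with Tnfaip2 at 949 and 355 CPM (1.42) and Socs3 at 249 and 503 CPM (-1.01).

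Cell cycle genes were mostly higher in tail suspension members in summed level, while the share of cells with Mki67 changed order after thinning. Of 24 measured, 22 were higher and 10 at least 2-fold, with a median of 0.75. Top2a, the topoisomerase of dividing cells, had 31.0 CPM in tail suspension and 9.16 CPM in non-tail suspension members (log2 ratio 1.76, 1.38 to 2.15), with a UMI in 7.64% and 5.88% of cells. Mki67, the proliferation antigen, had 83.5 and 48.7 CPM (0.78) but a UMI in 25.3% and 28.5% of cells before thinning. At equal depth after thinning, the shares were 5.32% (3.59 to 7.55) in tail suspension and 3.48% (2.31 to 5.03) in non-tail suspension members. These intervals overlap. In the subset low in class II without monocyte genes 2 of 6 measured genes were higher.

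Glucocorticoid-responsive genes had 9 higher and 4 lower of 13 measured, with a median of 0.42, against 0.54 in the resident gate and 0.61 in T cells. The metallothionein Mt2 had 497 CPM in tail suspension and 85.0 CPM in non-tail suspension members (log2 ratio 2.55) and 678 and 59.2 CPM in T cells. Klf9, a transcription factor induced by the receptor, had 154 and 66.4 CPM (1.21), and the phosphatase Dusp1 had 613 and 896 CPM (-0.55).

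The remaining lists had medians between -0.44 and 0.24. Lysosomal hydrolases had 8 higher and 17 lower of 25 (median -0.32), with Hexa at 173 CPM in tail suspension and 412 CPM in non-tail suspension members. Lipid-associated macrophage genes had 9 higher and 12 lower of 21 (-0.44), with the scavenger receptor Cd36 at 35.6 and 10.8 CPM and Apoe at 15152 and 30915 CPM. Iron genes had 11 higher and 6 lower of 17 (0.24), with the transferrin receptor Tfrc at 48.3 and 13.9 CPM and the ferritin heavy chain Fth1 at 14721 and 23346 CPM. Complement genes outside C1q had 11 higher and 5 lower of 16 (0.20), with factor B, Cfb, at 79.8 and 275 CPM. Phagocytic receptors had 7 higher and 11 lower of 18 (-0.08), scavenger receptors 11 and 7 of 18 (0.17), cytokine receptors 12 and 13 of 25 (-0.06), transcription factors 14 and 11 of 25 (0.07), growth factors and matrix 12 and 16 of 28 (-0.04), glycolysis 8 and 15 of 23 (-0.33), and immediate-early genes 7 and 18 of 25 (-0.42). Median-of-ratios scaling turns the medians of the complement, scavenger receptor and transcription factor lists to below 0.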

How the data were processed

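Per the labels, enthesis cells were captured in droplets and sequenced on an Illumina instrument, in 1 library from each condition. The authors deposited raw UMI counts per gene and barcode, and their software and build were Cell Ranger 5.0.1 and GRCm38 per the submitters' processing notes. Of 32285 gene identifiers, 32235 were in the GENCODE annotation of that build. Kept barcodes held 164543056 UMIs in tail suspension and 120482408 in non-tail suspension, and whether the libraries had been brought to equal depth is not given in the sources used here.

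Members held 4863249 UMIs in tail suspension and 9937184 in non-tail suspension. Counts were summed over the members of each library, divided by their total to give CPM, and compared as a log2 ratio. Cells are not replicates, so there is no test. Shares have Clopper-Pearson intervals and ratios conditional binomial intervals. A gene at 0 UMIs was set to 3 for its ratio. Gene counts required 50 UMIs over both libraries. The scripts, in Python 3.11.15 with numpy 2.4.6, scipy 1.17.1 and pandas 2.3.3, were tested on simulated data.

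The 24 named genes had at least 200 UMIs and, in the higher library, 50 CPM, a UMI in 10% of members and 0.5 times the CPM of all kept cells. Mitochondrial, ribosomal, haemoglobin and receptor genes, predicted genes, genes of the rule and markers of other cell types were left out. They are the 12 largest ratios each way whose direction held in cells thinned to 1000 UMIs and with median-of-ratios size factors. Genes named against the resident gate and as list examples follow similar rules of size, and genes in the plot of levels, with Flt3, Xcr1, Timd4, Ifngr1, Ciita, Ccr2, Fth1, Ccl6 and others named for their role, were chosen with values known. The members and the 36 gene lists were chosen with earlier results of these data known, and no list holds a gene of the rule. Some genes are in more than 1 list. Doublets were not removed, since the automatic threshold of Scrublet (scanpy 1.11.5) called 492 cells (3.40%) in tail suspension and 0 in non-tail suspension. A gate for monocytes without C1q was set aside, as it held B cell and T cell transcripts. The T cell gate holds 4 tail suspension and 9 non-tail suspension members. It also holds neutrophil markers at 68652 CPM in tail suspension and 77657 CPM in non-tail suspension, so it is no clean baseline for neutrophil genes.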

Additional observations from a re-analysis of the deposited data

Results flagged for a closer look

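In 7 genes of the lists the ratio between the libraries, positive where tail suspension is higher, had opposite signs in members and in the resident gate, by at least 0.5 on the log2 scale in each and with intervals that exclude 0. List genes with at least 200 UMIs over both libraries in each gate were screened. The share of all measured genes that meet the same rule was not counted, so the 7 cannot be set against it. The difference between the gates was not tested, and chance over many genes was not assessed. Spp1, the matrix cytokine osteopontin, had a log2 ratio of 0.69 in members (344 CPM in tail suspension and 213 CPM in non-tail suspension) and -1.31 in the resident gate (230 and 570 CPM). The matrix protein gene Thbs1 had 0.75 in members (124 and 73.8 CPM) and -0.99 in the resident gate (56.0 and 111 CPM). The growth factor gene Areg had 0.52 in members (58.0 and 40.6 CPM) and -0.57 in the resident gate (37.99 and 56.5 CPM). The cytokine gene Tnf had -0.52 in members (177 and 255 CPM) and 0.71 in the resident gate (286 and 175 CPM). The complement gene C4b had -0.63 in members (56.1 and 87.1 CPM) and 0.59 in the resident gate (277 and 184 CPM). The other two were low in level: Csf3 had -0.75 in members and 1.05 in the resident gate, and Mmp8, also a neutrophil granule gene, had -0.57 and 0.86.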

How the results depend on the processing

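The tail suspension share of members was below the non-tail suspension share under every setting tried. The shares of kept cells were 2.08% in tail suspension and 5.62% in non-tail suspension with C1q at 0.5% or more, 2.41% and 4.63% with no resident UMI, 2.96% and 6.60% with collagen under 0.1%, and 4.51% and 8.54% at 2000 UMIs per cell, a setting chosen after seeing the data. In members with few fibroblast and erythroid UMIs they were 2.66% and 7.08%. In non-tail suspension alone the share moved to 10.1% with at least 1000 genes, 8.43% with resident genes under 0.03% of UMIs and 6.45% without members holding neutrophil or lymphocyte transcripts. Among C1q cells below the collagen limit, tail suspension members were 42.1% with at least 1000 genes, 36.05% with C1q at 0.5%, 27.3% with no resident UMI, 41.6% with collagen under 0.1% and 30.1% with few fibroblast and erythroid UMIs. Non-tail suspension members were 62.4% with C1q at 0.5%, 41.7% with no resident UMI, 75.8% with resident genes under 0.03%, 58.0% without members holding other transcripts and 73.4% at 2000 UMIs. Genes at least 2-fold higher and lower numbered 555 and 520 under median-of-ratios scaling, 267 and 157 at 1000 UMIs, 418 and 184 at 2000 UMIs, and 389 and 208 with a minimum of 200 UMIs, and 1406 were higher with a minimum of 20 UMIs. Thinning and the minimum change how many genes enter. The class I, interferon, class II and resident marker medians kept their sign in all 19 settings. The cell cycle median in the subset low in class II without monocyte genes was -0.10 over the list's genes measured in all members and -0.17 over the 6 measured in that subset, and the cause was not tested. Of 456 values of the 24 named genes under another setting, 42 moved by over 1.5 times and beyond the counting interval, 23 of them in the subsets, 10 at a fixed number of UMIs and 9 elsewhere. Log2 ratios of Lyz1 ran between 1.70 and 6.17, of Tppp3 between 1.71 and 5.42, of Ly6i between -4.87 and -1.56 and of Ccl5 between -3.30 and -0.65. Their signs are no evidence of stability, since the genes were chosen for ratios whose direction held at 1000 UMIs and under median-of-ratios scaling. Leaving out the cells with the highest Scrublet scores, up to the expected rates of 12.4% and 9.14%, removed 50 and 70 members and replaced the automatic calls, which were not run as a setting. That setting and the one with few fibroblast and erythroid UMIs were also added after seeing the data. No paired analysis was possible because each condition has 1 library, and for the same reason no replicate could be left out. Genes below about 50 UMIs in members are beyond what this depth can compare.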
